A study of Mus musculus with 6 samples.

Results

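The genes described here make, move and sense bile acids. They are a list of 31 named genes, found by symbol among the 39179 genes of the deposited files, and every name matched 1 row. The files came from poly(A) RNA sequencing of liver tumours in wildtype C57BL/6 mice. In both groups transposons carrying Myc had been brought into hepatocytes by hydrodynamic injection, in which a large volume is pushed quickly into a tail vein. In the Myc/NrasG12V group (3 libraries) the partner was NrasG12V, a constitutively active mutant of a small GTPase, and in the Myc/Akt1 group (3 libraries) it was Akt1, a kinase of the insulin pathway. The labels gave no age, no time after injection and no promoter of the transposons, and left unstated if each library came from a different animal. P-values therefore measure only the spread between these samples, which may be technical. Normal liver was not analysed here, so each difference is one between tumour types.

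Bile acids are made from cholesterol in hepatocytes, by a classic route that starts with 7-alpha-hydroxylation and by an alternative route that starts with oxidation of the side chain. They are shortened in peroxisomes, joined to taurine or glycine, pumped across the canalicular membrane into bile and taken up again from portal blood across the basolateral membrane. The nuclear receptor FXR (gene Nr1h4) senses them and induces Nr0b2 (also called SHP), which represses synthesis genes.

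Levels are in CPM, the reads of a gene scaled so that all genes of a library sum to 1000000. Libraries held 17881282 to 27865094 reads, and 3 reads, the limit that a count of 0 allows, correspond to 0.108 to 0.168 CPM. Limits of this kind cover counting error only. Differences are Myc/NrasG12V minus Myc/Akt1 on the log2(CPM + 1) scale, tested with limma over 14365 genes. A gene was called different at a Benjamini-Hochberg adjusted p under 0.05. In these data many genes differed: limma called 39.5% of all tested genes, 29.5% as higher in Myc/Akt1 and 10% as higher in Myc/NrasG12V, and all tested genes had a median log2 difference of -0.26. The transcripts of the delivered partner genes followed the labels, with Nras 3.05-fold higher in the Myc/NrasG12V libraries and Akt1 4.3-fold higher in those of Myc/Akt1. Hepatocyte markers were abundant in all 6 libraries, with 5 marker genes summing to 112881 to 152287 CPM in Myc/NrasG12V and to 41043 to 52145 CPM in Myc/Akt1, mostly Alb. Of these, Apoa1 (5.99-fold) and Serpina1a (6.92-fold) were higher in Myc/NrasG12V, 0 were higher in Myc/Akt1, and Alb (3.3-fold in Myc/NrasG12V), Ttr (1.9-fold in Myc/Akt1) and Apob (1.4-fold in Myc/Akt1) did not pass. The groups did not overlap for Alb or Ttr. Means of Alb were 110858 ± 17663 CPM in Myc/NrasG12V and 33563 ± 4417 CPM in Myc/Akt1 (SD, n = 3), with a limma SE of 0.95 (limma adjusted p = 0.184). The part of hepatocyte content in the levels of bile acid genes was not tested. In bulk tissue, fewer cells of a type and less RNA per cell cannot be told apart.

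The promoters of Cyp8b1 and Nr0b2 show the regulatory sequence of the members with the largest difference in each direction, which are described with their values further on. Each window runs from 250 bases before the RefSeq transcription start to 50 after it, on the gene's strand, 5′ to 3′. Capitals mark matches to a set of 5 motifs searched on both strands: the HNF4A core CAAAGTCCA, the TATA box TATAAA, the E box CACGTG, which MYC and related factors bind, the NR5A2 site AAGGTCA and the FXR repeat, which is AGGTCA, any base and TGACCT.
Cyp8b1, chr9:121916256-121916555, minus strand, GRCm38.p6: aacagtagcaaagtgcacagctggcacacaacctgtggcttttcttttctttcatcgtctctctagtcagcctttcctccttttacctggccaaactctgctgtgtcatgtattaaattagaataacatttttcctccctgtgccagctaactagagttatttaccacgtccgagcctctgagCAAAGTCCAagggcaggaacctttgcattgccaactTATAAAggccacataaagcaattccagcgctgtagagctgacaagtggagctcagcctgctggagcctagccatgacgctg
Nr0b2, chr4:133553126-133553425, plus strand, GRCm38.p6: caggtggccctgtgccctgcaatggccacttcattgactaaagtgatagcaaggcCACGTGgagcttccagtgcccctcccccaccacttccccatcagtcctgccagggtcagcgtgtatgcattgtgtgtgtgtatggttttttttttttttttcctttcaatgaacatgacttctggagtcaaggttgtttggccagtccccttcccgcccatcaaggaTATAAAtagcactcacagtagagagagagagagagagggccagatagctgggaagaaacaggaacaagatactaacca
The Cyp8b1 window held the HNF4A core 67 bases and the TATA box 31 bases before the start. The Nr0b2 window held an E box 195 bases and a TATA box 28 bases before it. Of 32851 mouse promoter windows of this length, 0.475% held the HNF4A core, 13.6% the TATA box, 7.15% the E box, 4.72% the NR5A2 site and 0.00913% the FXR repeat. RefSeq windows matched 23 of the 31 members, with 30 windows in all. Among those 30, the HNF4A core was in 1, the TATA box in 8, the E box in 4, the NR5A2 site in 4 and the FXR repeat in 0. A match is a run of letters and was not tested as a binding site.

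On the CPM scale, most of the listed members were higher in Myc/Akt1. Of 31 members 30 were tested and 1, Slc51a, had 0 reads in all 6 libraries. Of the 30, 19 (63.3%) were higher in Myc/Akt1, against 29.5% of all tested genes, 2 (Cyp39a1 and Nr0b2) were higher in Myc/NrasG12V, against 10%, and 9 did not pass. The median log2 difference of the tested members was -1.0, against -0.26 over all tested genes. The groups did not overlap in CPM for 19 members that were higher in Myc/Akt1, which held for 38% of all tested genes, and for 1 that was higher in Myc/NrasG12V, which held for 14.8%. By role, 8 of 11 synthesis and conjugation genes, 8 of 14 tested transporters and 3 of 5 receptor genes were higher in Myc/Akt1, with median log2 differences of -1.74, -0.84 and -0.87. Differences between these roles were not tested. Scaling moved the split of calls: it was 19 to 2 on the CPM scale, 15 to 4 with TMM factors (all tested genes: 17.9% and 16.2%), 14 to 4 under median-of-ratios scaling (17.5% and 16.5%), 14 to 4 under upper-quartile scaling (16.3% and 17.7%), 14 to 4 with edgeR (17.5% and 16.6%) and 15 to 5 with DESeq2 (19.4% and 19.2%). With no filter on low values it was 19 to 0 (16.7% and 5.75%). The 3 sets of factors brought the share of all called genes that were higher in Myc/Akt1 from 74.7% to 52.4%, 51.5% and 48.0%, and the median difference over the 14365 tested genes to 0.0048, 0.0089 and 0.051. That of the members became -0.68, -0.68 and -0.63.

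**Figure D1:**
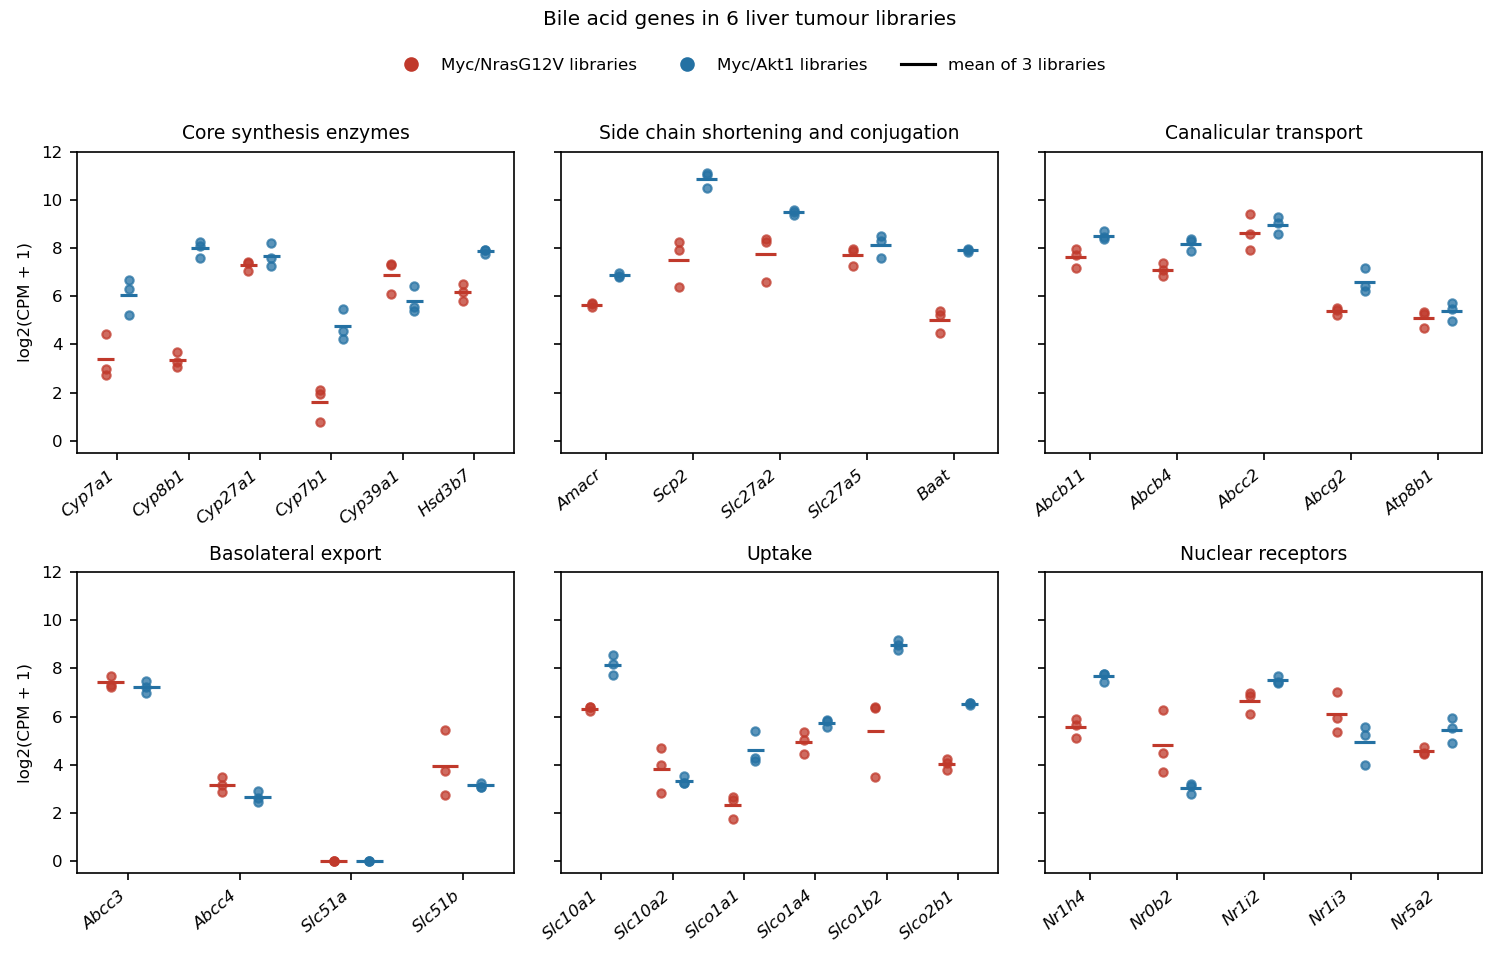
Levels of the 31 genes in each library as log2(CPM + 1), grouped by role; points are libraries and bars are means of 3. The Myc/Akt1 points lie above the Myc/NrasG12V points for 19 tested genes, and Slc51a is at 0 in every library.

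Of 6 core synthesis enzymes 4 were higher in Myc/Akt1, Cyp39a1 was higher in Myc/NrasG12V and Cyp27a1 did not pass. Cyp8b1 (ENSMUSG00000050445, chromosome 9, 121914356 to 121916305, minus strand, GRCm38), the sterol 12-alpha-hydroxylase needed for cholic acid, was at 193, 305 and 274 CPM in Myc/Akt1 replicates 1, 2 and 3 and at 8.74, 11.8 and 7.38 CPM in Myc/NrasG12V. Its means were 257 ± 58.1 and 9.31 ± 2.26 CPM (SD, n = 3), and all 3 Myc/Akt1 libraries were more than an order of magnitude above each Myc/NrasG12V library. Its log2 difference was -4.64 (SE 0.23, limma adjusted p = 1.92e-05), the largest among the members. Cyp7a1, the rate-limiting enzyme of the classic route, was at 36.1, 100.0 and 76.7 CPM in Myc/Akt1 replicates 1, 2 and 3 and at 20.7, 5.65 and 6.77 CPM in Myc/NrasG12V. The Myc/Akt1 libraries were all higher, and Myc/NrasG12V replicate 1 stood above the other two libraries of its group. The fold of means was 6.43, or 11.4 without that library (log2 difference -2.67, SE 0.50, limma adjusted p = 0.00355).

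Cyp7b1, the oxysterol 7-alpha-hydroxylase of the alternative route, was at 17.7, 22.8 and 43.9 CPM in Myc/Akt1 replicates 1, 2 and 3 and at 3.29, 2.89 and 0.727 CPM in Myc/NrasG12V, a fold of 12.2 (limma adjusted p = 8.67e-04). Its counts in Myc/NrasG12V were low, at 69, 63 and 13 reads. Hsd3b7, which oxidizes the ring after 7-alpha-hydroxylation in both routes, was at 217, 242 and 238 CPM in Myc/Akt1 replicates 1, 2 and 3 and at 71.3, 90.2 and 54.3 CPM in Myc/NrasG12V, or 3.23-fold higher in Myc/Akt1 (limma adjusted p = 4.61e-04). Exons of Hsd3b7 share 1717 bases with Gm49388 on the same strand and 1729 with 9430064I24Rik on the opposite strand, so the assignment of its reads is uncertain. Cyp27a1, the sterol 27-hydroxylase that starts the alternative route, was abundant in both groups, at 152, 190.2 and 297 CPM in Myc/Akt1 replicates 1, 2 and 3 and at 167, 172 and 129.9 CPM in Myc/NrasG12V. Those groups overlapped, and the log2 difference was -0.40 with a 95% interval of -0.98 to 0.18 (limma adjusted p = 0.248).

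Cyp39a1, which hydroxylates 24-hydroxycholesterol, went against the other enzymes. It was at 157, 158 and 66.6 CPM in Myc/NrasG12V replicates 1, 2 and 3 and at 46.3, 84.6 and 41.1 CPM in Myc/Akt1. Replicates 1 and 2 of Myc/NrasG12V were above every Myc/Akt1 library, while replicate 3 lay below Myc/Akt1 replicate 2, so the groups overlapped. Its log2 difference was 1.11 (SE 0.38) and the limma adjusted p 0.0471, close to the threshold. That call ended without Myc/NrasG12V replicate 1 (adjusted p = 0.14), Myc/NrasG12V replicate 2 (0.142), Myc/Akt1 replicate 1 (0.138) or Myc/Akt1 replicate 3 (0.143) and with no filter on low values (0.086), with a range over the limma, edgeR and DESeq2 alternatives of 0.00231 to 0.143.

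Per kilobase of exon, the 2 groups ranked the 6 core enzymes differently. In Myc/Akt1 the level of Cyp8b1 was 132 ± 29.8 RPKM (SD, n = 3), followed by Cyp27a1 at 98 ± 34.5, Hsd3b7 at 84 ± 5.03, Cyp39a1 at 18.8 ± 7.78, Cyp7a1 at 17 ± 7.75 and Cyp7b1 at 13 ± 6.42. Of these neighbours only Hsd3b7 and Cyp39a1 were further apart than the sum of their SDs. In Myc/NrasG12V the level of Cyp27a1 led at 72 ± 10.6 RPKM (SD, n = 3), followed by Cyp39a1 at 41.7 ± 17.3, Hsd3b7 at 26 ± 6.49, Cyp8b1 at 4.77 ± 1.16, Cyp7a1 at 2.64 ± 2.01 and Cyp7b1 at 1.06 ± 0.638. There the gaps between Cyp27a1 and Cyp39a1 and between Hsd3b7 and Cyp8b1 exceeded the sum of the SDs. Exon lengths are from GENCODE M21, which may not be the release the submitters used.

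Genes of side chain shortening and conjugation were higher in Myc/Akt1 for 4 of 5 members. Scp2, whose products include the peroxisomal thiolase of bile acid shortening, was the most abundant of all 31 genes there per kilobase, with a level of 550.4 RPKM against 60 RPKM. It was at 2193, 2094 and 1456 CPM in Myc/Akt1 replicates 1, 2 and 3 and at 243, 301 and 82.4 CPM in Myc/NrasG12V. The groups were far apart, and Myc/NrasG12V replicate 3 was the lowest library. The difference on the log2 scale was -3.36 (SE 0.45, limma adjusted p = 7.45e-04). Baat, which joins bile acids to taurine and glycine, was at 248, 242 and 224 CPM in Myc/Akt1 replicates 1, 2 and 3 and at 36.7, 40.9 and 21 CPM in Myc/NrasG12V. The Myc/Akt1 libraries lay within a narrow band, and the fold of means was 7.25 (limma adjusted p = 1.26e-04).

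Amacr, the racemase that prepares the side chain for shortening, was at 110.4, 114 and 126 CPM in Myc/Akt1 replicates 1, 2 and 3 and at 45.7, 51 and 49.5 CPM in Myc/NrasG12V, or 2.4-fold higher in Myc/Akt1 (limma adjusted p = 4.78e-04), with little spread in either group. Slc27a2, a very long-chain acyl-CoA synthetase, was at 727, 764 and 657 CPM in Myc/Akt1 replicates 1, 2 and 3 and at 332, 306 and 96.1 CPM in Myc/NrasG12V, with no overlap. Its limma adjusted p of 0.0122 became 0.0514 under median-of-ratios scaling, 0.0502 under upper-quartile scaling and 0.0697 in edgeR, in a range of 0.00119 to 0.0697 over all alternatives. Slc27a5, the bile acid CoA ligase that acts just before Baat, did not follow it. That gene was at 191, 314 and 366 CPM in Myc/Akt1 replicates 1, 2 and 3 and at 249, 235 and 151 CPM in Myc/NrasG12V, overlapping, with a log2 difference of -0.43 and an interval of -1.09 to 0.22 (limma adjusted p = 0.26).

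**Figure D2:**
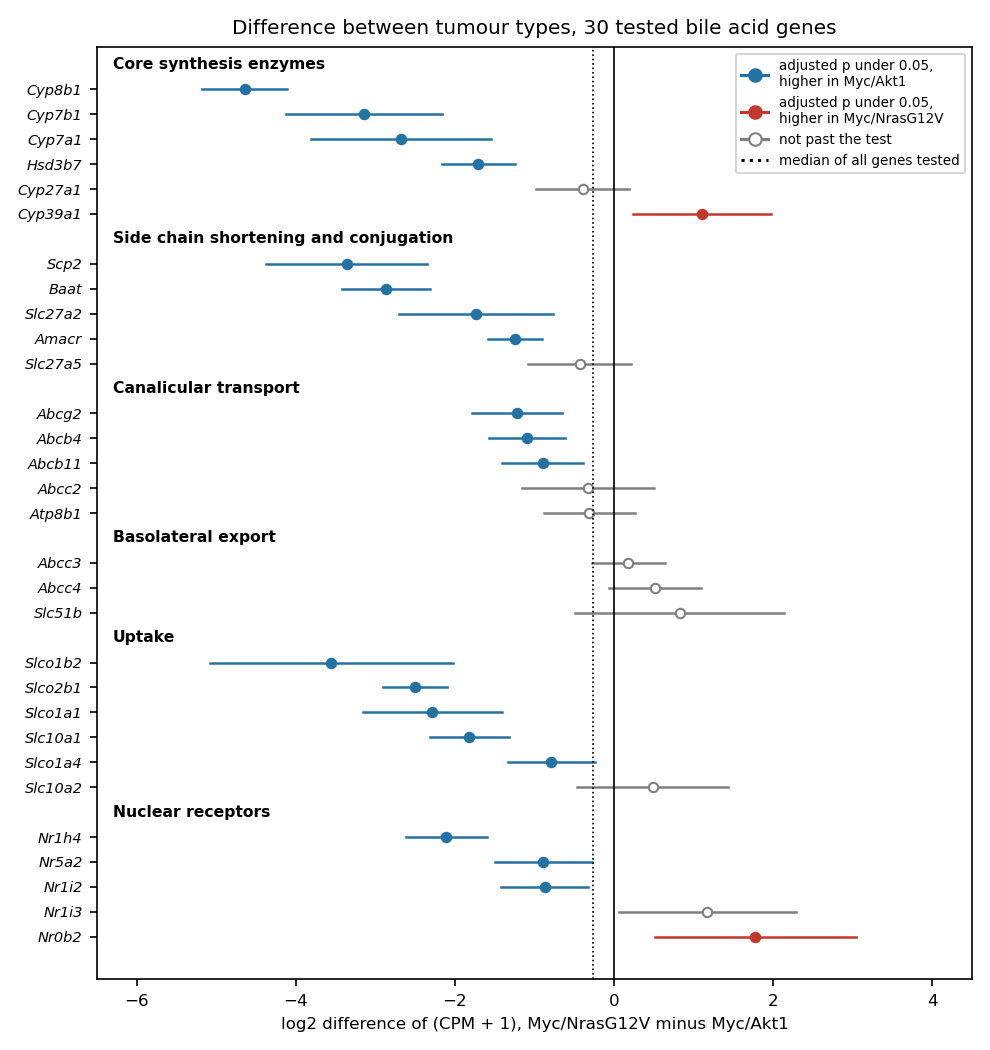
Log2 difference of each tested gene with its 95% limma interval, by role; filled points passed an adjusted p of 0.05 and the dotted line is the median of all genes tested. Cyp8b1 is farthest toward Myc/Akt1 at -4.64 and Nr0b2 farthest toward Myc/NrasG12V at 1.77; the 3 tested basolateral exporters are open points on the Myc/NrasG12V side.

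Of 6 uptake carriers 5 were higher in Myc/Akt1 and 0 in Myc/NrasG12V, of 5 canalicular genes 3 and 0, and of 3 tested basolateral exporters 0 and 0, where all tested genes gave 29.5% and 10%. Under TMM, median-of-ratios or upper-quartile scaling the counts were 4 and 0 for uptake, 2 and 0 for canalicular genes and 0 and 1 for exporters. All tested genes then gave 16.3% to 17.9% and 16.2% to 17.7%. Slc10a1 (NTCP), the sodium-dependent uptake carrier, was at 209, 294 and 372 CPM in Myc/Akt1 replicates 1, 2 and 3 and at 82.4, 82.6 and 74.4 CPM in Myc/NrasG12V. Every Myc/Akt1 library was more than 2-fold above every Myc/NrasG12V library, and the log2 difference was -1.82 (SE 0.22, limma adjusted p = 4.89e-04). Slco1b2 (ENSMUSG00000030236, chromosome 6, 141629518 to 141686646, plus strand, GRCm38), the main sodium-independent carrier of liver, was at 429, 585 and 498 CPM in Myc/Akt1 replicates 1, 2 and 3 and at 81.4, 82.2 and 10.3 CPM in Myc/NrasG12V. Replicate 3 of Myc/NrasG12V was far below the other two of its group. Slco1b2 had a log2 difference of -3.55 (SE 0.67, limma adjusted p = 0.00391).

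Slco2b1, an organic anion carrier, was at 87.2, 94.9 and 93.2 CPM in Myc/Akt1 replicates 1, 2 and 3 and at 12.8, 16 and 17.7 CPM in Myc/NrasG12V, or 5.91-fold higher in Myc/Akt1 (limma adjusted p = 5.60e-05). Slco1a1, another of these carriers, was at 18.5, 16.7 and 40.7 CPM in Myc/Akt1 replicates 1, 2 and 3 and at 2.34, 4.82 and 5.37 CPM in Myc/NrasG12V, or 6.05-fold higher in Myc/Akt1 (limma adjusted p = 0.0022). Neither gene had overlapping groups. Slco2b1 shares 471 exon bases with Gm15635 and 78 with Gm34280, both on the opposite strand. Slco1a4, whose close copies include Slco1a1, was at 54.6, 45.9 and 57 CPM in Myc/Akt1 replicates 1, 2 and 3 and at 21.1, 31.2 and 40.2 CPM in Myc/NrasG12V. Its groups did not overlap, and its limma adjusted p of 0.0304 ended with TMM factors (0.127), median-of-ratios factors (0.131) and upper-quartile factors (0.183), with edgeR (0.139) and DESeq2 (0.168), and without any 1 library other than Myc/NrasG12V replicate 3, over a range of 0.00651 to 0.183. Reads of the Slco1a genes may be split uncertainly among these copies.

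Slc10a2 (ASBT), best known from ileum and bile duct cells, was at 14.7, 24.6 and 6.15 CPM in Myc/NrasG12V replicates 1, 2 and 3 and at 8.48, 10.7 and 8.45 CPM in Myc/Akt1. The groups overlapped, with Myc/NrasG12V replicate 3 the lowest of all 6, and the log2 difference was 0.48 with an interval of -0.47 to 1.43 (limma adjusted p = 0.389). Without that library it passed (adjusted p = 0.0177; 0.0177 to 0.916 over the alternatives). Among 6 cholangiocyte markers 1, Spp1, was higher in Myc/NrasG12V, 0 were higher in Myc/Akt1, 4 did not pass and Cftr was too low to test. Their sum was 424 to 968 CPM in Myc/NrasG12V and 128 to 262 CPM in Myc/Akt1, nearly all of it Spp1, and Krt19 was at 1.24, 6.57 and 0.727 and 0.382, 1.26 and 1.23 CPM. The part of such cells in the level of Slc10a2 was not tested.

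Per kilobase, Slc10a1 and Slco1b2 led the uptake carriers in both groups, and the other 4 changed places. In Myc/Akt1 the level of Slc10a1 was 133 ± 37.2 RPKM (SD, n = 3), followed by Slco1b2 at 102 ± 15.9, a gap within their SDs, Slco2b1 at 15.4 ± 0.677, Slco1a4 at 8.18 ± 0.913, Slco1a1 at 4.79 ± 2.53 and Slc10a2 at 2.22 ± 0.31. In Myc/NrasG12V the level of Slc10a1 was 36.3 ± 2.12 RPKM (SD, n = 3), followed by Slco1b2 at 11.8 ± 8.37, Slco1a4 at 4.81 ± 1.49, Slc10a2 at 3.65 ± 2.22, Slco2b1 at 2.6 ± 0.42 and Slco1a1 at 0.792 ± 0.306. Slco1b2, Slco1a4, Slc10a2 and Slco2b1 followed each other there within the sum of their SDs.

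Canalicular genes had log2 differences from -1.22 to -0.31. Abcb11 (BSEP), the bile salt export pump, was at 347, 421 and 331 CPM in Myc/Akt1 replicates 1, 2 and 3 and at 145, 246 and 208 CPM in Myc/NrasG12V. No Myc/NrasG12V library reached the lowest Myc/Akt1 library. For Abcb11 the log2 difference was -0.90 (SE 0.22, limma adjusted p = 0.0136), and the call ended with TMM factors (0.0788), median-of-ratios factors (0.0877) or upper-quartile factors (0.108), with edgeR (0.107) and DESeq2 (0.0917), and without Myc/Akt1 replicate 2 (0.0564), in a range of 0.013 to 0.108. Abcb4, the phosphatidylcholine floppase that protects the duct epithelium from bile salts, was at 330.1, 315 and 236 CPM in Myc/Akt1 replicates 1, 2 and 3 and at 112, 134 and 165 CPM in Myc/NrasG12V, without overlap (limma adjusted p = 0.00391). Abcg2, an efflux pump of broad specificity, was at 142, 85.7 and 72.8 CPM in Myc/Akt1 replicates 1, 2 and 3 and at 44.1, 41.6 and 36.7 CPM in Myc/NrasG12V. The groups were apart for Abcg2, and its limma adjusted p was 0.00544.

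Abcc2 (MRP2), the canalicular pump for conjugates, was the most variable of the canalicular genes in Myc/NrasG12V. It was at 684, 379 and 243 CPM in Myc/NrasG12V replicates 1, 2 and 3 and at 632, 523 and 378 CPM in Myc/Akt1. The range of the Myc/NrasG12V libraries enclosed that of the Myc/Akt1 libraries, and the log2 difference of -0.33 had an interval of -1.16 to 0.51 (limma adjusted p = 0.509). Atp8b1, the flippase that keeps the canalicular membrane asymmetric, had a log2 difference of -0.31 with an interval of -0.89 to 0.27 (limma adjusted p = 0.363). Its levels were 43.9, 51.5 and 30.7 CPM in Myc/Akt1 and 37.1, 39.4 and 24.6 CPM in Myc/NrasG12V, overlapping. Without passing, the difference of Abcc2 changed sign with upper-quartile factors, edgeR and DESeq2 and without Myc/NrasG12V replicate 3, and that of Atp8b1 with median-of-ratios and upper-quartile factors, edgeR and DESeq2.

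Basolateral exporters, which return bile acids to blood, had positive log2 differences that did not pass. Abcc3 (MRP3) was at 206, 149.8 and 159.7 CPM in Myc/NrasG12V replicates 1, 2 and 3 and at 179.5, 124 and 151 CPM in Myc/Akt1. These groups overlapped in part, with a log2 difference of 0.18 and an interval of -0.27 to 0.63 (limma adjusted p = 0.502). Abcc4 (MRP4) was at 10.4, 6.29 and 7.83 CPM in Myc/NrasG12V replicates 1, 2 and 3 and at 6.58, 5.13 and 4.41 CPM in Myc/Akt1, with a log2 difference of 0.51 (limma adjusted p = 0.142). It passed as higher in Myc/NrasG12V with TMM factors (0.0413), median-of-ratios factors (0.0396) and upper-quartile factors (0.0321), with edgeR (0.0415) and with DESeq2 (0.0117), in a range of 0.0117 to 0.382. Abcc4 was the lowest tested exporter per kilobase, with levels of 1.28 RPKM in Myc/NrasG12V and 0.841 RPKM in Myc/Akt1.

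Slc51a and Slc51b encode the 2 subunits of the organic solute transporter OSTalpha-OSTbeta, and the beta subunit is a known FXR target. Slc51b was at 5.63, 12.2 and 42.7 CPM in Myc/NrasG12V replicates 1, 2 and 3 and at 7.47, 7.46 and 8.59 CPM in Myc/Akt1. Only Myc/NrasG12V replicate 3 was far from the rest, and Myc/NrasG12V replicate 1 was the lowest library of all. The fold of means of 2.58 fell to 1.14 without replicate 3 (log2 difference 0.83, interval -0.49 to 2.14, limma adjusted p = 0.286). It passed as higher in Myc/NrasG12V with DESeq2 (0.0144) and without Myc/NrasG12V replicate 1 (0.0481), in a range of 0.0144 to 0.841. Slc51a had 0 reads in all 6 libraries, which allows up to 0.108 to 0.168 CPM in each. Of its exon bases 567 are shared with Pcyt1a on the opposite strand.

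Receptor genes went both ways. Of 5, Nr1h4, Nr1i2 and Nr5a2 were higher in Myc/Akt1, Nr0b2 was higher in Myc/NrasG12V and Nr1i3 did not pass. All tested genes gave 29.5% and 10% in the 2 directions. Under the 3 other scalings, edgeR and DESeq2, 1 was higher in Myc/Akt1 and 2 were higher in Myc/NrasG12V. The shares of all tested genes were then 16.3% to 19.4% and 16.2% to 19.2%, so the lean of this class toward Myc/Akt1 depended on the scaling. Nr1h4 (ENSMUSG00000047638, chromosome 10, 89454234 to 89533585, minus strand, GRCm38), which encodes the bile acid receptor FXR, was at 173, 219 and 218 CPM in Myc/Akt1 replicates 1, 2 and 3 and at 59.5, 48.8 and 33.8 CPM in Myc/NrasG12V. Its means were 203 ± 26.1 and 47.3 ± 12.9 CPM (SD, n = 3), and the lowest Myc/Akt1 library was nearly 3 times the highest Myc/NrasG12V library. This gave a log2 difference of -2.11 (SE 0.23, limma adjusted p = 2.90e-04). Nr0b2 (ENSMUSG00000037583, chromosome 4, 133553376 to 133556536, plus strand, GRCm38), the FXR-induced repressor, was at 12, 21.2 and 75.9 CPM in Myc/NrasG12V replicates 1, 2 and 3 and at 5.94, 8.22 and 7.68 CPM in Myc/Akt1. All Myc/NrasG12V libraries were above all Myc/Akt1 libraries, with Myc/NrasG12V replicate 3 far above the other libraries and the 3 Myc/Akt1 libraries close together. The fold of means of 5.0 fell to 2.28 without replicate 3. Nr0b2 had a log2 difference of 1.77 (SE 0.55, limma adjusted p = 0.0331). That call was lost without Myc/NrasG12V replicate 2 (0.0538) and without any of Myc/Akt1 replicates 1 (0.098), 2 (0.0712) or 3 (0.0758) and with no filter (0.0656), in a range of 1.76e-05 to 0.098.

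Nr1i2 encodes PXR, a receptor for drugs and toxic bile acids, and was at 206, 168 and 173 CPM in Myc/Akt1 replicates 1, 2 and 3 and at 124, 115 and 67.8 CPM in Myc/NrasG12V. Nr5a2 encodes LRH-1, an activator of Cyp7a1 and Cyp8b1, and was at 45.1, 60.4 and 28.7 CPM in Myc/Akt1 replicates 1, 2 and 3 and at 20.9, 26 and 21.3 CPM in Myc/NrasG12V. For both genes the groups did not overlap, by a small margin for Nr5a2. Their limma adjusted p values were 0.0203 and 0.0284, and both calls ended with TMM factors (0.149 and 0.131), with the 2 other factors, with edgeR (0.194 and 0.0992) and with DESeq2. Both also ended without Myc/Akt1 replicate 1, and that of Nr5a2 also when Myc/NrasG12V replicate 1 was left out, or Myc/Akt1 replicate 2, in ranges of 0.0158 to 0.21 and 0.00586 to 0.158. Nr1i3 encodes CAR, the partner of PXR in drug responses, and was at 60.8, 39.8 and 127 CPM in Myc/NrasG12V replicates 1, 2 and 3 and at 14.7, 37.2 and 46 CPM in Myc/Akt1. Groups overlapped at about 40 CPM, and Myc/NrasG12V replicate 3 was the highest. Its limma adjusted p of 0.0879 became 0.0455, 0.0434 and 0.0412 under TMM, median-of-ratios and upper-quartile scaling, 0.0443 with edgeR, 0.0067 with DESeq2, 0.0353 with the replicate number as a block and 0.0481 without Myc/NrasG12V replicate 2, all past the threshold toward Myc/NrasG12V, in a range of 0.0067 to 0.272. The fold of means of 2.33 was 1.54 without replicate 3. Exons of Nr1i3 share 3304 bases with Tomm40l on the opposite strand, and the strand setting of the counting was not given in the sources used here.

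Per kilobase, the level of Nr1h4 was the highest of the 5 receptor genes in Myc/Akt1, at 88.3 ± 11.3 RPKM (SD, n = 3), ahead of Nr1i2 at 71.4 ± 8.01, a gap within the sum of their SDs, while Nr5a2, Nr1i3 and Nr0b2 were at 7.58, 7.39 and 6.43 RPKM. In Myc/NrasG12V the level of Nr1i2 was 40.1 ± 11.8 RPKM (SD, n = 3), followed by Nr0b2 at 32.1 ± 30.5, Nr1h4 at 20.6 ± 5.6, Nr1i3 at 17.2 ± 10.3 and Nr5a2 at 3.85 ± 0.485. The first 4 of that order followed each other within the sum of their SDs.

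Ratios of 2 genes within a library do not depend on how libraries are scaled. For 12 pairs the log2 ratio of CPM + 1 was compared with an exact two-sided permutation test over samples, which cannot give a p below 0.1 for 3 against 3. The added 1 lets scaling enter the tested values for genes of low CPM, and the ratios printed here are of plain CPM. The groups did not overlap for 9 pairs, each with an exact p of 0.1, or 0.133 after Benjamini-Hochberg adjustment over the 12, so no pair passed. Cyp8b1 over Cyp7a1 was 5.34, 3.05 and 3.57 in Myc/Akt1 and 0.423, 2.09 and 1.09 in Myc/NrasG12V. Cyp27a1 over Cyp7a1 was 4.21, 1.9 and 3.87 in Myc/Akt1 and 8.09, 30.4 and 19.2 in Myc/NrasG12V. The first ratio was higher and the second lower in every Myc/Akt1 library. Baat over Slc27a5, the 2 steps of conjugation, was 1.3, 0.769 and 0.613 in Myc/Akt1 and 0.147, 0.174 and 0.138 in Myc/NrasG12V, with a narrow band in the latter.

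The 3 basolateral exporters with reads were set against the canalicular pump Abcb11. Abcc3 over Abcb11 was 1.42, 0.609 and 0.768 in Myc/NrasG12V and 0.518, 0.296 and 0.456 in Myc/Akt1, and Abcc4 over Abcb11 was 0.0715, 0.0256 and 0.0377 in Myc/NrasG12V and 0.019, 0.0122 and 0.0133 in Myc/Akt1. Slc51b over Abcb11 was 0.0389, 0.0496 and 0.206 in Myc/NrasG12V and 0.0215, 0.0177 and 0.026 in Myc/Akt1. In all 3 ratios every Myc/NrasG12V value was above every Myc/Akt1 value, and none passed (exact p = 0.1 each). They share the denominator Abcb11, itself higher in Myc/Akt1 on the CPM scale (log2 difference -0.90), so they are not 3 independent results. The levels of each exporter alone overlapped between groups. The uptake carrier Slc10a1 over Abcb11 was at 0.568, 0.336 and 0.358 in Myc/NrasG12V and 0.602, 0.697 and 1.13 in Myc/Akt1, all lower in the former. Nr0b2 over Nr1h4 was 0.202, 0.434 and 2.25 in Myc/NrasG12V and 0.0343, 0.0376 and 0.0352 in Myc/Akt1. The 3 Myc/Akt1 values were nearly equal, and the Myc/NrasG12V values spanned a factor of more than 10. Slco1a4 over Slco1b2 ran from 0.259 to 3.89 in Myc/NrasG12V and from 0.0784 to 0.127 in Myc/Akt1. Cyp7b1 over Cyp7a1, Abcb4 over Abcb11 and Slco1a1 over Slco1b2 overlapped between groups (exact p = 0.50, 0.60 and 0.50).

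**Figure D3:**
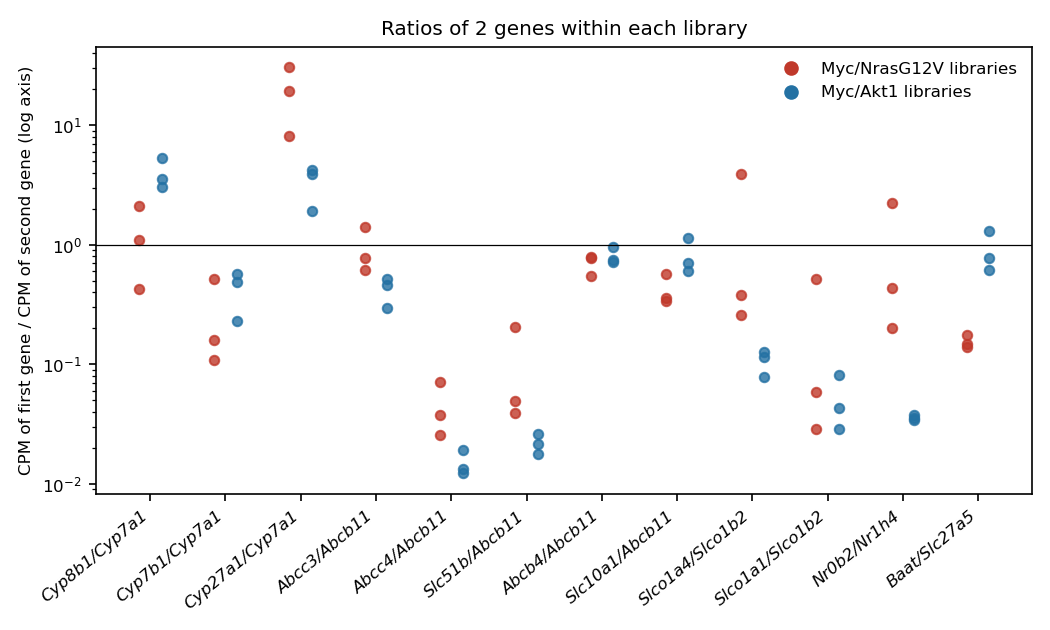
Ratio of the CPM of 2 genes in each library, on a log axis, for 12 pairs. For Nr0b2 over Nr1h4 the Myc/Akt1 points sit together between 0.0343 and 0.0376 while the Myc/NrasG12V points run from 0.202 to 2.25. The 3 exporter ratios to Abcb11 do not overlap between groups. No pair could pass, as the exact test cannot give a p below 0.1 for 3 against 3.

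The Myc/NrasG12V libraries were not alike. Replicate 3 was mostly the lowest or the highest of its group, among the members and among all tested genes. Only the direction differed, more often down for the members and up for all tested genes. On log2(CPM + 1), replicate 3 was the lowest of its group for 17 of 30 tested members (56.7%) and the highest for 7 (23.3%). Over all 14365 tested genes it was the lowest for 30.3% and the highest for 51.7%. Its median shift from the mean of replicates 1 and 2 was -0.40 for the members and 0.14 for all tested genes. The members shifted most downward were Slco1b2 (-2.87), Slc27a2 (-1.72), Scp2 (-1.70) and Slc10a2 (-1.49). Those shifted most upward were Slc51b (2.22), Nr0b2 (2.18) and Nr1i3 (1.35). Nr1h4 was lowest in replicate 3 (-0.66), and so were Baat (-0.85) and Cyp8b1 (-0.41), while Abcb11 lay between the other two and Abcb4 above them (0.42). With 1 library these shifts have no replicate check.

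Sums of neutrophil and erythroid markers were highest in that library. Within Myc/NrasG12V, macrophage marker sums were lowest there, at 224, 146 and 103 CPM in replicates 1, 2 and 3. T and NK cell marker sums were too, at 18.5, 7.16 and 6.21 CPM. The 5 neutrophil markers summed to 18.8, 51 and 164 CPM in Myc/NrasG12V replicates 1, 2 and 3 and to 1.36 to 1.87 CPM in Myc/Akt1. Of those 5 genes, 3 were higher in Myc/NrasG12V, 1 (Camp) did not pass and Ly6g was too low to test. The 5 erythroid markers summed to 267, 966 and 1683 CPM in Myc/NrasG12V and 47 to 92.8 CPM in Myc/Akt1, with 4 of 5 higher in Myc/NrasG12V. Macrophage markers (2 of 5 higher in Myc/NrasG12V, sums of 103 to 224 CPM and 79.5 to 108 CPM), endothelial markers (1 of 4 in each direction, 114 to 177 CPM and 149.8 to 188 CPM), stellate and fibroblast markers (1 of 4 higher in Myc/NrasG12V, 292 to 386 CPM and 248 to 401 CPM) and T and NK cell markers (2 of 4 higher in Myc/NrasG12V, Klrb1c higher in Myc/Akt1, 6.21 to 18.5 CPM and 2.38 to 4.04 CPM) differed less. The part of these cells in the levels of bile acid genes was not tested. Without replicate 3, 19 members were higher in Myc/Akt1 and 3 in Myc/NrasG12V. The shares of all tested genes were then 33.4% and 10.5%. The counts were 17 and 2 without Myc/NrasG12V replicate 1 (all tested genes: 22.3% and 8.07%), 18 and 1 without Myc/NrasG12V replicate 2 (23% and 9.19%), 16 and 0 without Myc/Akt1 replicate 1 (20.1% and 6.72%), 16 and 1 without Myc/Akt1 replicate 2 (21.3% and 7.02%) and 18 and 0 without Myc/Akt1 replicate 3 (27.6% and 8.99%). With the replicate number as a block they were 19 and 3 (28.3% and 10.2%).

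**Figure D4:**
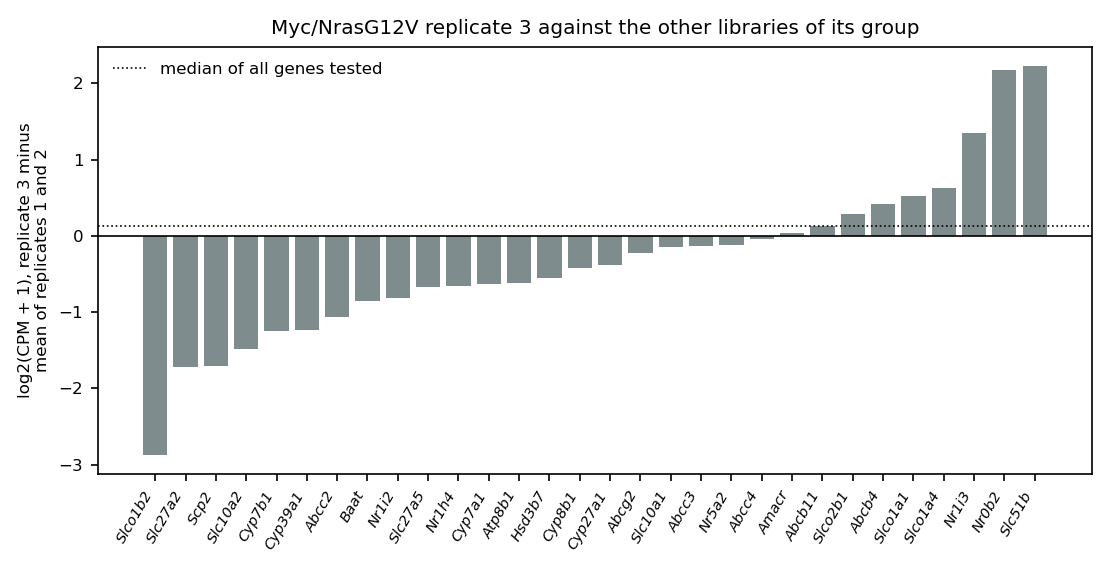
Shift of Myc/NrasG12V replicate 3 from the mean of replicates 1 and 2 on log2(CPM + 1) for the 30 tested genes; the dotted line is the median over all tested genes, 0.14. Bars run from -2.87 for Slco1b2 to 2.22 for Slc51b.

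Other genes of the pathway went both ways. Of a further 37 genes 35 were tested, 14 (40%) were higher in Myc/Akt1, against 29.5% of all tested genes, 4 were higher in Myc/NrasG12V, against 10%, and 17 did not pass, with a median log2 difference of -0.53. Under TMM, median-of-ratios or upper-quartile factors 9 were higher in Myc/Akt1 and 5 in Myc/NrasG12V. All tested genes then gave 16.3% to 17.9% and 16.2% to 17.7%. Among 9 more synthesis genes 5 were higher in Myc/Akt1. Akr1c14 and Akr1d1, which reduce the ring, were 8.8-fold and 5.52-fold higher there (limma adjusted p = 0.00104 and 1.95e-04), and Hsd17b4, the peroxisomal bifunctional enzyme, was 5.94-fold higher, at 696, 547 and 429 CPM in Myc/Akt1 and 106, 109 and 66.4 CPM in Myc/NrasG12V. Acox2, the branched-chain acyl-CoA oxidase, and the thioesterase Acot8 were 1.7-fold and 2.58-fold higher (limma adjusted p = 0.0136 and 0.0017). The Acox2 call ended with TMM (adjusted p = 0.138), median-of-ratios and upper-quartile factors, edgeR, DESeq2 and without Myc/Akt1 replicate 2. Ch25h, the cholesterol 25-hydroxylase, which is best known from macrophages, went the other way, at 0.976, 0.251 and 0.591 CPM in Myc/Akt1 and 3.2, 2.98 and 2.52 CPM in Myc/NrasG12V (limma adjusted p = 0.00247), at under 5 CPM throughout.

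Among 8 other genes of transport and the canaliculus 2 were higher in each group. All tested genes gave 29.5% toward Myc/Akt1 and 10% toward Myc/NrasG12V. With TMM, median-of-ratios or upper-quartile factors 1 of the 8 was higher in Myc/Akt1 and 3 in Myc/NrasG12V. The shares of all tested genes were then 16.3% to 17.9% and 16.2% to 17.7%. Myo5b, a motor that brings transporters to the canaliculus, and Tmem30a, the partner subunit of flippases such as Atp8b1, were 2.79-fold and 1.59-fold higher in Myc/Akt1 (limma adjusted p = 0.00407 and 0.00866). Abcb1a, a multidrug efflux pump, and Abcg8, which exports sterols into bile, were 2.68-fold and 2.11-fold higher in Myc/NrasG12V (limma adjusted p = 0.00404 and 0.0243). Levels of Abcg8 were 14.4, 16.4 and 33.9 CPM in Myc/Akt1 and 56.8, 43.8 and 35.7 CPM in Myc/NrasG12V, just short of overlap, and its call ended on leaving out replicate 1 or 2 of either group (adjusted p = 0.0599 to 0.0914). The Tmem30a call ended with TMM (0.106), median-of-ratios or upper-quartile factors, edgeR and DESeq2. Of 12 signalling and regulator genes 10 were tested. Nr1h3, which encodes the oxysterol receptor LXRalpha, and Klb and Fgfr4, the receptor pair for the intestinal hormone FGF15, were 2.21-fold, 2.02-fold and 1.7-fold higher in Myc/Akt1 (limma adjusted p = 0.00211, 0.0338 and 0.0219). Calls of Klb and Fgfr4 ended with TMM factors (0.143 and 0.107), the 2 other factors, edgeR and DESeq2, that of Klb also with no filter. Both also ended when replicate 2 of either group was left out, Klb when Myc/NrasG12V replicate 3 was or Myc/Akt1 replicate 1, and Fgfr4 when Myc/NrasG12V replicate 1 was or Myc/Akt1 replicate 3. Vdr, the vitamin D receptor, was higher in Myc/NrasG12V at 0.636, 0.251 and 0.318 CPM in Myc/Akt1 and 2.96, 1.61 and 1.57 CPM in Myc/NrasG12V (limma adjusted p = 0.00647). Hnf4a, whose product binds the motif marked in Cyp8b1, was at 634, 704 and 465 CPM in Myc/Akt1 and 624, 576 and 683 CPM in Myc/NrasG12V, overlapping, with a log2 difference of 0.08 and an interval of -0.41 to 0.57 (limma adjusted p = 0.792). Fgf15 had 0 reads in all 6 libraries and Gpbar1, a membrane receptor for bile acids, too few to test.

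Control by PXR or CAR was not tested for the 8 genes listed here as their targets. Of these, 4 were higher in Myc/Akt1 and 0 in Myc/NrasG12V, where all tested genes gave 29.5% and 10%. With TMM factors the counts were 3 and 0, against 17.9% and 16.2%. Sult2a8, a sulfotransferase, was at 24.8, 74.1 and 204 CPM in Myc/Akt1 and 5.49, 3.58 and 0.447 CPM in Myc/NrasG12V, with wide spread in both groups (limma adjusted p = 0.00253). Gsta1, a glutathione transferase, was at 51.4, 31.4 and 50.6 CPM in Myc/Akt1 and 1.62, 1.47 and 0.783 CPM in Myc/NrasG12V, and Cyp2c55 at 19.3, 9.01 and 12 CPM in Myc/Akt1 and 1.29, 1.06 and 0.336 CPM in Myc/NrasG12V (limma adjusted p = 3.78e-05 and 3.60e-04). Cyp3a11, the classic PXR target, was 2.42-fold higher in Myc/Akt1 (limma adjusted p = 0.0157), a call that ended with TMM (0.0732), median-of-ratios or upper-quartile factors, edgeR and without Myc/Akt1 replicate 1. Close copies exist of the Sult2a, Gsta, Cyp2c and Cyp3a genes, which leaves the assignment of their reads uncertain. Cyp2b10, the classic CAR target, did not pass, at 8.78, 12.1 and 42.9 CPM in Myc/Akt1 and 5.35, 7.07 and 12.3 CPM in Myc/NrasG12V (limma adjusted p = 0.164). Acox2, Acot8, Tmem30a, Fgfr4, Hnf4a, Cyp3a11 and Cyp2b10 were named after their values had been seen.

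**Figure D5:**
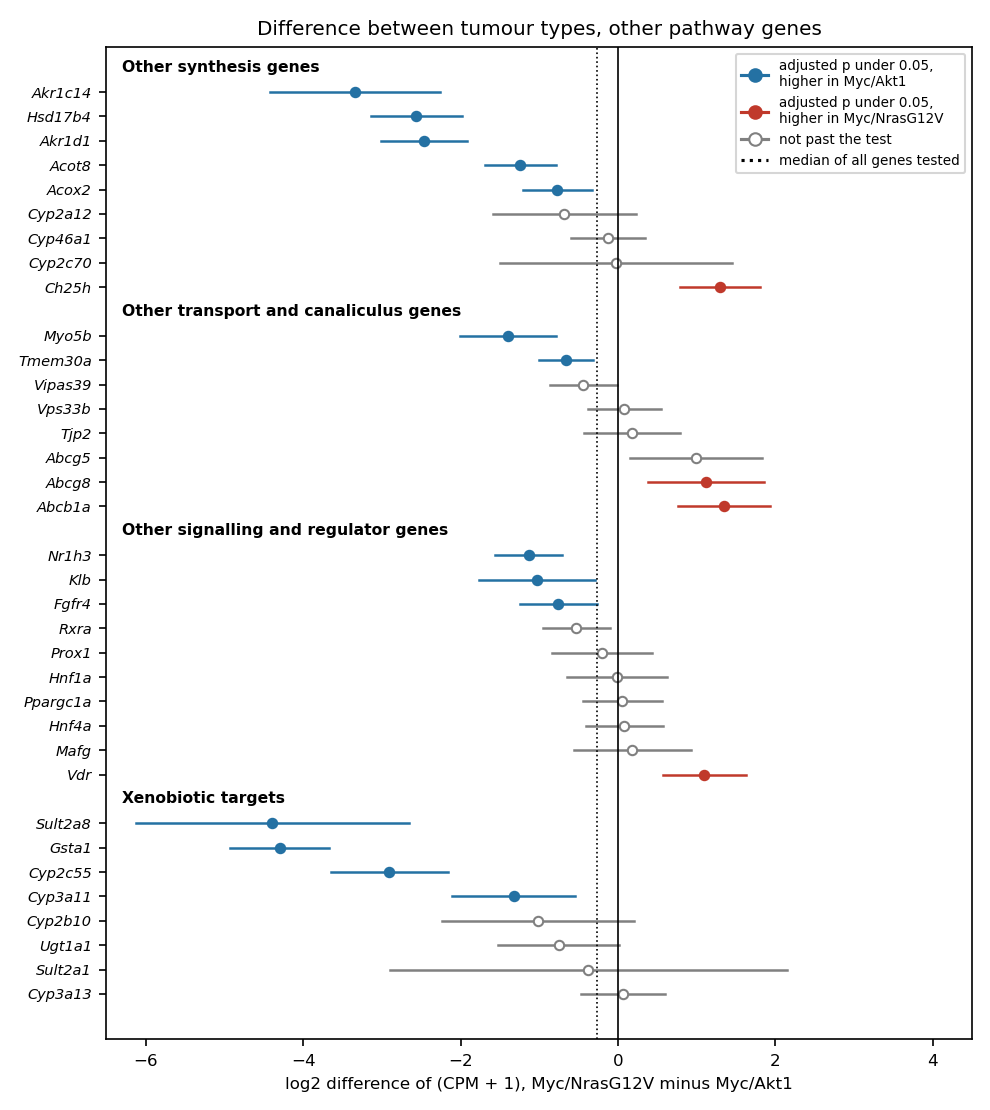
Log2 difference of the 35 tested further genes with 95% limma intervals, drawn as for the members. Points toward Myc/Akt1 are most frequent among synthesis genes and xenobiotic targets, and Abcb1a, at 1.35, is farthest toward Myc/NrasG12V.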

How the data were processed

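Poly(A) libraries of 6 tumour samples were analysed, grouped by the labels' titles. The deposited CPM values (in a column named reads) sum to 1000000 in each library. All values (100%) are multiples of the CPM of 1 read to within a tolerance of 0.01, which gives back the read numbers. STAR 2.6.1c, Subread 1.6.3, edgeR 3.22.5 and GRCm38 are named in the submitters' processing notes. The annotation release, strand setting and multi-read handling are not given in the sources used here. Genes passing edgeR's filterByExpr (14365) were fitted with limma 3.58.1 (lmFit, eBayes with trend, two-sided, no covariate) on log2(CPM + 1), with Benjamini-Hochberg adjustment over all of them. Folds are ratios of mean CPM. RPKM is CPM per kilobase of merged GENCODE M21 exons. edgeR 4.0.16 on the recovered reads called 4893 genes and DESeq2 1.42.0 was also run, under R 4.3.3. Values per library were given for members past the test with a log2 difference of at least 1 in size, members against their role's majority and uncalled members averaging 20 CPM or more, and for some other members chosen after their values were seen. Of the further genes, the rule named the 3 largest called differences per sublist and those against its majority. Members and lists were chosen with earlier results of these data known. On simulated data of this comparison (14365 genes) 200 genes were altered and the procedure found 7.5% of the 80 with a 1.5-fold change, 54.4% of the 57 with a 2-fold change and all 63 with a 4-fold change. Calls of unaltered genes numbered 6 (5.66% of calls). All genes were given a negative binomial dispersion of 0.05, and altered genes averaged at least 5 CPM. No outlying library or general shift between groups was simulated, so these rates may not hold for the real libraries. Replicate numbers were not treated as pairs in the main fit.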

Additional observations from a re-analysis of the deposited data

How the results depend on the processing

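The count of members higher in Myc/Akt1 (19) was 14 to 19 under the alternatives. That of members higher in Myc/NrasG12V (2) was 4 with TMM, median-of-ratios or upper-quartile factors and with edgeR, 5 with DESeq2 and 0 with no filter; leaving out 1 library gave 16 to 19 and 0 to 3. Of the further genes, 14 were higher in Myc/Akt1, and 9 with TMM, median-of-ratios or upper-quartile factors or edgeR; leaving out 1 library gave 11 to 14 and, toward Myc/NrasG12V, 3 to 5. Log2 differences near 0 changed sign: Abcc2 was 0.043 with upper-quartile factors, 0.11 with edgeR, 0.12 with DESeq2 and 0.027 without Myc/NrasG12V replicate 3 (-0.72 to 0.027 over single libraries left out); Atp8b1 was 0.0038 with median-of-ratios factors, 0.052 with upper-quartile factors, 0.013 with edgeR and 0.020 with DESeq2; Hnf4a was -0.093 without Myc/Akt1 replicate 3 (up to 0.21 without replicate 2). For Cyp2c70 it was 0.29, 0.30 and 0.35 with TMM, median-of-ratios and then upper-quartile factors, 0.75 with edgeR, 0.76 with DESeq2, 0.88 without Myc/NrasG12V replicate 3, 0.023 without Myc/Akt1 replicate 2 and 0.086 without Myc/Akt1 replicate 3 (down to -0.48 without Myc/NrasG12V replicate 2). The cause was not tested. Samples with the same replicate number correlated at -0.08, 0.11 and 0.08 in their deviations from the group means, and not every sample correlated best with its own number. With 3 samples per group this cannot settle if they share more than a number. With the replicate number as a block 19 members were higher in Myc/Akt1 and 3 in Myc/NrasG12V, the third being Nr1i3. Alternatives were chosen with earlier results known.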

Other observations

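Cyp2c70, the mouse enzyme that makes muricholic acids, was named after its values were seen. It was at 592, 604 and 89.9 CPM in Myc/NrasG12V replicates 1, 2 and 3 and at 261, 345 and 377 CPM in Myc/Akt1. Replicates 1 and 2 of Myc/NrasG12V were above all Myc/Akt1 libraries and replicate 3 below all of them. The log2 difference was -0.02, with an interval of -1.50 to 1.45 (limma adjusted p = 0.982). Without Myc/NrasG12V replicate 3 it was 0.88 and passed toward Myc/NrasG12V (limma adjusted p = 0.00829). Sult2a1, also named after its values were seen, a sulfotransferase of bile acids with close copies, had its spread in Myc/Akt1, at 1.91, 68.3 and 85.2 CPM in replicates 1, 2 and 3, against 26.5, 13.3 and 19.3 CPM in Myc/NrasG12V, and did not pass (limma adjusted p = 0.815). Myc/Akt1 replicate 1 was the lowest of all 6 libraries for that gene.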
